A study of Mus musculus with 52 samples.

Results

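The genes described here are those of cholesterol synthesis, of its control by sterols and of the movement of cholesterol inside the cell, measured in cultures of mouse bone marrow stromal cells. They were chosen by name: 28 symbols were listed, and a listed gene was used if a probe set of the array was annotated to that symbol alone, with the probe set of highest mean standing for a gene that had several. Of the 28, 25 were found among 22180 genes with such a probe set, and all 25 passed the filter on low values that left 14911 genes for testing. Idi1, Acat2 and Soat1 were not analysed here. No measured value entered the choice by name, but the list was drawn up with earlier results of these data known.

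Cells make cholesterol from acetyl units through mevalonate, farnesyl pyrophosphate, squalene and lanosterol. Side branches from farnesyl pyrophosphate feed the lipid anchors of proteins, ubiquinone and dolichol. The transcription factor SREBP2, encoded by Srebf2, drives most genes of the route. When membranes hold much sterol, INSIG proteins keep the SREBP escort SCAP in the endoplasmic reticulum, and when sterol falls, SCAP carries SREBP2 to the Golgi, where it is cut and released to the nucleus. INSIG1 is itself a target of SREBPs, and in fat cells also of the nuclear receptor PPARγ. Bone marrow stromal cells can become osteoblasts, which lay down bone, or adipocytes, which store lipid and take part in cholesterol storage.

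The 52 arrays (Affymetrix Mouse Gene 2.0 ST, total RNA) formed 13 groups of 4. Marrow came from the femur, tibia and humerus of female C57BL/6J mice aged 8 weeks. Cells of 2 to 4 animals were pooled, and each of the 4 pools, numbered 12, 15, 19 and 20 in the labels, gave 1 array to every group. Cultures grew in medium with 10% serum, were changed to fresh medium after 5 days, and were induced 7 days after plating with osteoinductive medium, for which the labels list ascorbate (12.5 µg/ml), β-glycerol phosphate (8 mM), insulin (0.5 µg/ml) and dexamethasone (10 nM) and name no serum. The naive group was labelled undifferentiated; the protocols describe it once as harvested before the change to that medium and once as untreated upon it. The other 12 groups stood for 1 or 4 days in that medium with DMSO vehicle (0.1%), rosiglitazone (Rosi, 100 nM, an agonist of PPARγ), LG100268 (LG268, 100 nM, an agonist of the RXR receptors, which pair with PPARγ and with the sterol-sensing LXRs), TBT (80 nM), TPhP or MEHP. These last abbreviations are usual for tributyltin, triphenyl phosphate and monoethylhexyl phthalate. The labels spell out none of them, and no dose of TPhP or MEHP is stated in the sources used here. Against naive cells, medium, DMSO and time in culture cannot be told apart.

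Values are the deposited log2 values, and every difference below is a difference of log2 values, so that 1 stands for a doubling. Errors are SD over the 4 pools for group means and SE for differences, the latter from limma with the spread pooled over all 13 groups. A gene was called higher or lower at a Benjamini-Hochberg adjusted p under 0.05 over all genes tested. Arrays of 1 pool share animals. Group means were subtracted, and each array's correlations with arrays of other groups were averaged by pool. For 45 of 52 arrays the highest average was that of their own pool. A fit with the pool as a replicate block is therefore given wherever it changed the call of a gene that is named. Across all tested genes, 4 arrays lay farthest from the median of their group: pool 15 of Rosi at day 4 and pool 12 of vehicle, TPhP and MEHP at day 4. The cultures held more than stromal cells. All 10 stromal markers, such as Col1a1 and Cxcl12, and all 10 macrophage markers, such as Csf1r and Adgre1, lay above the median of the table on all 52 arrays, and 6 of 8 neutrophil markers and 3 of 5 B cell markers (Cd79a, Cd79b and Ebf1) did so too. The B cell markers Ms4a1 and Pax5 lay above it on 39 and 45 arrays. In such bulk RNA fewer cells of a type and less RNA per cell cannot be told apart.

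Over the 13 groups the members split into those that were highest early and those that were highest late. The lowest group mean was that of naive cells for 16 of the 25 members. The highest was that of Rosi at day 4 for 12 members, among them Lss, Insig1, Hmgcs1, Pmvk, Cyp51, Nsdhl, Sc5d and Dhcr7, and that of a day 1 group for 9 others, among them Mvk, Msmo1, Fdft1, Sqle, Fdps and Srebf2. The widest span between group means was that of Lss, 2.94 between naive cells (7.13 ± 0.41, SD, n = 4) and Rosi at day 4 (10.07 ± 0.37). Scap, which encodes the SREBP escort, had the narrowest, from 7.60 ± 0.13 with MEHP at day 4 to 7.85 ± 0.09 with LG268 at day 4, and was called in none of the 28 comparisons made.

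**Figure D1:**
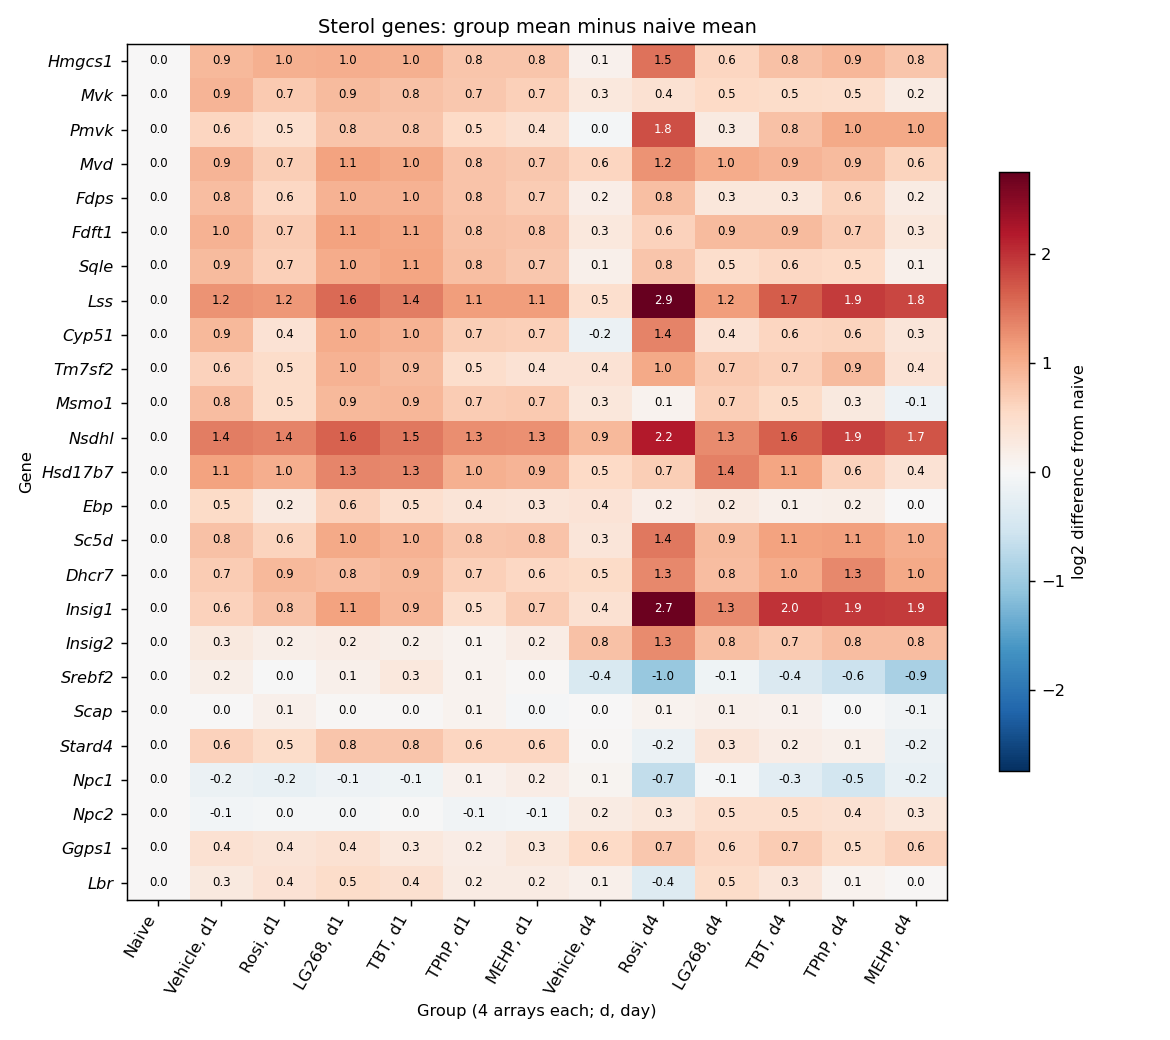
Difference of each group mean from the naive mean (log2, colour and printed value) for the 25 members (one to a line) in the 13 groups (columns), naive cells being 0 throughout. Most members are raised in all day 1 columns, and at day 4 the Rosi column holds both the largest increases, such as Lss and Insig1, and decreases of Srebf2 and Npc1.

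One day after induction with vehicle, most of the cholesterol route was higher than in naive cells. Of the 25 members 18 rose and none fell, 72% of the members where 12.9% of all tested genes were called higher. The median difference was 0.70 over the members and 0.05 over all genes. The rise covered 3 of 4 mevalonate genes, both prenyl pyrophosphate synthases (Fdps and Ggps1), both genes of squalene (Fdft1 and Sqle) and 9 of the 10 that turn squalene oxide into cholesterol. Of the 4 regulators only Insig1 was called, and of the 3 transport genes only Stard4, a cytosolic cholesterol carrier.

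Mvk encodes mevalonate kinase. Its values were 6.49, 6.72, 6.54 and 6.44 in pools 12, 15, 19 and 20 of naive cells and 7.43, 7.50, 7.47 and 7.52 in the same pools of vehicle at day 1, a difference of 0.94 (SE 0.11, adjusted p = 1.84e-07). Nsdhl, a dehydrogenase that removes the methyl groups of lanosterol, stood at 8.54, 8.60, 7.98 and 8.20 in naive cells and at 9.68, 9.75, 9.75 and 9.73 with vehicle, and had the largest difference, 1.40 (SE 0.19, adjusted p = 1.47e-06). Both genes were lower in all 4 naive arrays than in any vehicle array. Msmo1, the oxidase that starts that removal, went from 7.90, 8.10, 7.78 and 7.83 to 8.74, 8.76, 8.70 and 8.76, by 0.84 (SE 0.11, adjusted p = 1.5e-06). Fdft1, squalene synthase, went from 8.61, 8.90, 8.26 and 8.31 to 9.47, 9.56, 9.33 and 9.57, by 0.96 (SE 0.15, adjusted p = 1.9e-05). Neither pair of groups overlapped. For Sqle, squalene epoxidase, the 4 naive arrays held 8.001, 8.53, 7.92 and 8.04 and the vehicle arrays 9.002, 8.99, 9.02 and 8.99, a difference of 0.88 (SE 0.14, adjusted p = 3e-05). Hmgcs1, which joins the acetyl units at the head of the route, read 9.74, 9.87, 9.30 and 9.36 and then 10.51, 10.46, 10.36 and 10.47, 0.88 (SE 0.15, adjusted p = 4.31e-05) higher. Pool 15 was the highest naive array for all 6 of these genes and was still below every vehicle array, and the vehicle arrays lay within a few hundredths of each other for Sqle and Msmo1.

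The other members that rose were Lss (1.24 ± 0.25), the cyclase that closes the sterol rings, Hsd17b7 (1.11 ± 0.19), Mvd (0.92 ± 0.19), Cyp51 (0.90 ± 0.20), Fdps (0.84 ± 0.17), Sc5d (0.80 ± 0.17), Dhcr7 (0.70 ± 0.18), Stard4 (0.63 ± 0.13), Tm7sf2 (0.63 ± 0.16), Insig1 (0.63 ± 0.21), Ebp (0.53 ± 0.09) and Ggps1 (0.42 ± 0.10). Pmvk, phosphomevalonate kinase, was 0.59 higher with no overlap of the groups but missed the threshold (adjusted p = 0.0693 by limma). With the replicate block Pmvk (adjusted p = 0.0301) and Insig2 (adjusted p = 0.0437, difference 0.26) were called as well. Srebf2, Scap, Lbr, Npc1 and Npc2 were called in neither fit, with differences of 0.16, 0.01, 0.27, -0.17 and -0.08. Of the 18 calls, 14 held in every alternative fit tried. Without pool 20, Ggps1, Tm7sf2, Dhcr7 and Insig1 missed the threshold (adjusted p = 0.0654, 0.0951, 0.119 and 0.198), and Insig1 also missed it without pool 15 (0.0532) or 19 (0.119) and with cyclic loess (0.0733).

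Beside these, the fatty acid genes governed by SREBP1 were higher in 6 of 11, with Elovl6, a fatty acid elongase, at 1.56 (SE 0.22, adjusted p = 4.42e-06) and Fads1, a desaturase, at 0.62 (SE 0.10, adjusted p = 4.45e-05). Of 21 further genes of sterol handling, 4 rose and 2 fell. Those that rose included Tmem97 (0.80 ± 0.11), a sterol-binding membrane protein, and Erg28 (0.53 ± 0.09), a scaffold of the demethylation enzymes. Those that fell were Abca1 (-0.66 ± 0.16), the cholesterol exporter, and Lipa (-0.68 ± 0.17), the lysosomal lipase that frees cholesterol from its esters. Of 12 genes that use prenyl groups, 5 rose and none fell, led by Zmpste24 (0.55 ± 0.07), which trims prenylated lamin A. Of the marker lists, none of 10 stromal, 1 of 10 macrophage, 1 of 7 osteoblast and 1 of 7 proliferation markers were called higher, and 2 of 9 adipocyte markers lower. Among cell markers, 1 of 8 neutrophil, 2 of 5 B cell and 1 of 7 osteoclast markers were lower. None of 5 endothelial markers was called. The medians were -0.78 for neutrophil, -0.81 for B cell and -0.44 for osteoclast markers. The log2 of the summed macrophage markers lay at 13.88 to 14.05 in naive arrays and 14.02 to 14.17 with vehicle. The part of all these marker lists in the result was not tested.

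Since the members rose together, the 250 bases before their start sites were searched in RefSeq (GRCm38.p6), which had promoter entries for 20 of the 25 measured genes. Fdps, Fdft1, Sqle, Stard4 and Npc1 had none among the entries used. A form of the sterol regulatory element, written TCACNCCAC and searched on both strands as the others were, was in the promoter of 1 member, Hmgcs1, and in 1.05% of 32851 promoters. CCAAT, the core of the NF-Y site, was in 19 of the 26 promoters that these 20 genes have among the entries, against 33.8% of all promoters, and at least 2 copies were in 12 of the 26 against 10.1%. CACGTG, an E-box, was in 5 of the 26 against 6.02%. Promoters of 1 gene can overlap, and Dhcr7 and Insig2 had 3 each and Pmvk and Scap 2. Both shorter motifs were chosen for searching after the values had been seen, and the motifs do not overlap each other in the stretches shown. The stretch of Hmgcs1 (chr13:119690101-119690350, plus strand) is shown because it holds the sterol element. Those of Mvk (chr5:114444019-114444268, plus strand), Msmo1 (chr8:64733579-64733828, minus strand) and Hsd17b7 (chr1:169969206-169969455, minus strand) are shown because they hold several CCAAT, and those of Lss (chr10:76531355-76531604, plus strand) and Insig1 (chr5:28071162-28071411, plus strand) because these genes changed most later. These 5 were picked after their values and sequences were seen. Each is written 5′ to 3′ on the strand of the gene and ends just before its start, with matches in capitals: TCACCCCAC is the sterol element, CCAAT and its reverse ATTGG the NF-Y core, CACGTG the E-box.
Hmgcs1: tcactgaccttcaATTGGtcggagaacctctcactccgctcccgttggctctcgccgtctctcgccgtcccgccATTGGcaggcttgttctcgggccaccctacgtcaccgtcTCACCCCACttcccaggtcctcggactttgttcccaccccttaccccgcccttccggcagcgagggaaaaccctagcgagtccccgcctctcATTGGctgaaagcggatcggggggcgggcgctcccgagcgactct
Mvk: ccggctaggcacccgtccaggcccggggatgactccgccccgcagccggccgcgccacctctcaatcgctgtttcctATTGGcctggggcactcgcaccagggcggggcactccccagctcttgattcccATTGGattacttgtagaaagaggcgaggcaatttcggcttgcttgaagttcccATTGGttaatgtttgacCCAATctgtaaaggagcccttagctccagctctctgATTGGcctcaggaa
Msmo1: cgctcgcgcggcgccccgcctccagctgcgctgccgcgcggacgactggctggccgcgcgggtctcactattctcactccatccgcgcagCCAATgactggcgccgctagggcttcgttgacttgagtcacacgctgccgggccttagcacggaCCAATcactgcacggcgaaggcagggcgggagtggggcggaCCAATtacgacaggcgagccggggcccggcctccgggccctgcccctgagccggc
Hsd17b7: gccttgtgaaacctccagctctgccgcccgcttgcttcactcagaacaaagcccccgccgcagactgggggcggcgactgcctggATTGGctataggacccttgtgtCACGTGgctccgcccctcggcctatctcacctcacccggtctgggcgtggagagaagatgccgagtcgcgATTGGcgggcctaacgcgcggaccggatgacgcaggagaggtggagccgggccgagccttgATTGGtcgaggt
Lss: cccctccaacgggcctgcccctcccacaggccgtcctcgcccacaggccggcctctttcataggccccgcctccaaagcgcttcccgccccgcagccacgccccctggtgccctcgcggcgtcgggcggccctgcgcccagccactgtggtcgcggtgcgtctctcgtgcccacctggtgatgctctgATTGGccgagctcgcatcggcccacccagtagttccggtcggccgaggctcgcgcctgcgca
Insig1: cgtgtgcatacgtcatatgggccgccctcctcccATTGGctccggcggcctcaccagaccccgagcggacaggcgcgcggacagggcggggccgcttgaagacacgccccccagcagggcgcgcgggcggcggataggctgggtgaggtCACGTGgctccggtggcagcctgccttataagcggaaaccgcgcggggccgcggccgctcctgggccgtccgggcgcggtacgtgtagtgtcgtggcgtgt

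In Hmgcs1 the sterol element began 137 bases before the start, between ATTGG copies that began 176 and 45 bases before it. In Mvk 4 of the 5 copies were ATTGG, spaced 53 bases apart at each step. Msmo1 and Hsd17b7 held 3 copies each, in opposite orientations. In Hsd17b7 and Insig1 a CACGTG began 143 and 101 bases before the start. A match is a description of the letters, and binding was not measured.

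After 4 days with vehicle most of the route lay between its naive and its day 1 level. Against naive cells 10 members were higher and 1 lower, 40% and 4% of the members beside 17.4% and 11.5% of all tested genes. The member median was 0.29 (0.05 over all genes). Against vehicle at day 1, 11 members were lower and 2 higher, where 8.29% and 4.6% of all genes were, with a median of -0.51 (0.01 over all genes). These comparisons share arrays, so that a high day 1 value enters the rise to day 1 and the fall from it alike.

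The fall from day 1 to day 4 took in 2 of the 4 mevalonate genes, Fdps, both squalene genes, 4 of the 10 late sterol genes, Srebf2 and Stard4. Mvk went from the day 1 values given above to 6.54, 6.75, 7.04 and 7.02, a difference of -0.64 (SE 0.11, adjusted p = 0.000109). Cyp51, the demethylase of lanosterol, went from 9.33, 9.50, 9.38 and 9.40 to 7.86, 8.55, 8.40 and 8.55, a difference of -1.06 (SE 0.20, adjusted p = 0.000303). Hmgcs1 went to 9.37, 9.52, 9.90 and 9.91, a difference of -0.78 (SE 0.15, adjusted p = 0.000374). All arrays of day 4 were below all of day 1 for these 3 genes, and pool 12 was the lowest array of day 4 in each. Srebf2 held 9.19, 9.09, 9.15 and 9.37 at day 1 and 8.51, 8.46, 8.73 and 8.76 at day 4, a difference of -0.58 (SE 0.10, adjusted p = 0.000115). It was also below naive cells (9.08, 9.32, 8.89 and 8.86), with a difference of -0.42 (SE 0.10, adjusted p = 0.00123) and no overlap of the groups, though not when only the arrays of those groups were fitted (adjusted p = 0.0584), and without pool 15 it was -0.28 (adjusted p = 0.0411).

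Sqle (-0.74 ± 0.14), Stard4 (-0.60 ± 0.13), Msmo1 (-0.52 ± 0.11) and Fdft1 (-0.68 ± 0.15) fell in every alternative fit too. Fdps (-0.66 ± 0.17), Lss (-0.77 ± 0.25) and Hsd17b7 (-0.57 ± 0.19) fell in the fit of all arrays, and all missed the threshold without pool 20 (adjusted p = 0.119, 0.194 and 0.106). Hsd17b7 also missed it without the array of pool 12 of vehicle at day 4 (0.27), where it stood at 6.94 against 8.09 in pool 19, and so did Lss (0.0576). Lss missed it without pool 12, 15 or 19 too (0.0572, 0.0582 and 0.106) and with cyclic loess (0.0612), and Fdps without pool 19 (0.0978). Hsd17b7 further missed it without pool 12 or 15 (0.337 and 0.0676), with cyclic loess (0.0608) and with only the arrays compared (0.167). With the pool as a block, Pmvk (adjusted p = 0.0239, -0.64) and Nsdhl (0.0458, -0.51) were also lower at day 4.

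Only 2 members, Insig2 and Npc2, were called higher at day 4 than at day 1. Insig2, the INSIG that does not depend on SREBPs, held 6.65, 6.66, 6.45 and 6.33 in naive cells, 7.0, 6.96, 6.56 and 6.62 at day 1 and 7.45, 7.50, 7.22 and 7.17 at day 4. The day 4 arrays were above all others, by 0.81 (SE 0.13, adjusted p = 8.72e-06) against naive cells and 0.55 (SE 0.13, adjusted p = 0.00379) against day 1. Ggps1, which makes the longer prenyl group, rose to 7.76, 7.93, 7.79 and 7.87 from 7.39, 7.51, 7.13 and 7.09 in naive cells, by 0.55 (SE 0.10, adjusted p = 4.2e-05). Its day 4 arrays overlapped those of day 1, and it was not called against day 1. Nsdhl stayed 0.89 (SE 0.19, adjusted p = 0.000287) above naive cells with 9.10, 9.18, 9.27 and 9.32, but below every day 1 array. Npc2, a carrier of cholesterol out of lysosomes, was 0.31 (SE 0.09, adjusted p = 0.0117) above day 1 and 0.23 (SE 0.09, adjusted p = 0.0358) above naive cells, with overlapping groups both times. It missed the threshold without the pool 12 array of vehicle at day 4 (adjusted p = 0.0876 and 0.187). Ebp, Mvd, Hsd17b7, Dhcr7, Msmo1 and Mvk were also called above naive cells at day 4, by 0.38, 0.58, 0.55, 0.52, 0.31 and 0.29, and each missed the threshold without pool 20. With 1 pool or array left out at a time, the number called against naive cells ranged over 4 to 13, with 5 without pool 19 and the lowest without pool 20. Of the 11 calls against naive cells, 3 held in every alternative fit (Nsdhl, Insig2 and Ggps1).

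From day 1 to day 4 of vehicle, 5 of 7 proliferation markers fell, 4 of 9 adipocyte and 2 of 7 osteoblast markers rose, and none of 10 macrophage markers was called. The log2 sum of the proliferation markers went from 10.80 to 11.08 to 10.21 to 10.58 and that of the adipocyte markers from 11.95 to 12.27 to 12.18 to 12.78. Of 7 osteoclast markers tested 6 rose and none fell, and of 5 B cell markers 2 fell, while none of 8 neutrophil and 5 endothelial markers was called. Of 10 stromal markers 2 rose and 1 fell. Their part in the fall of the members was not tested. The receptor gene Nr1h3 (LXRα) and the exporter gene Abcg1 rose over the same interval, by 0.65 ± 0.15 and 1.03 ± 0.24.

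**Figure D2:**
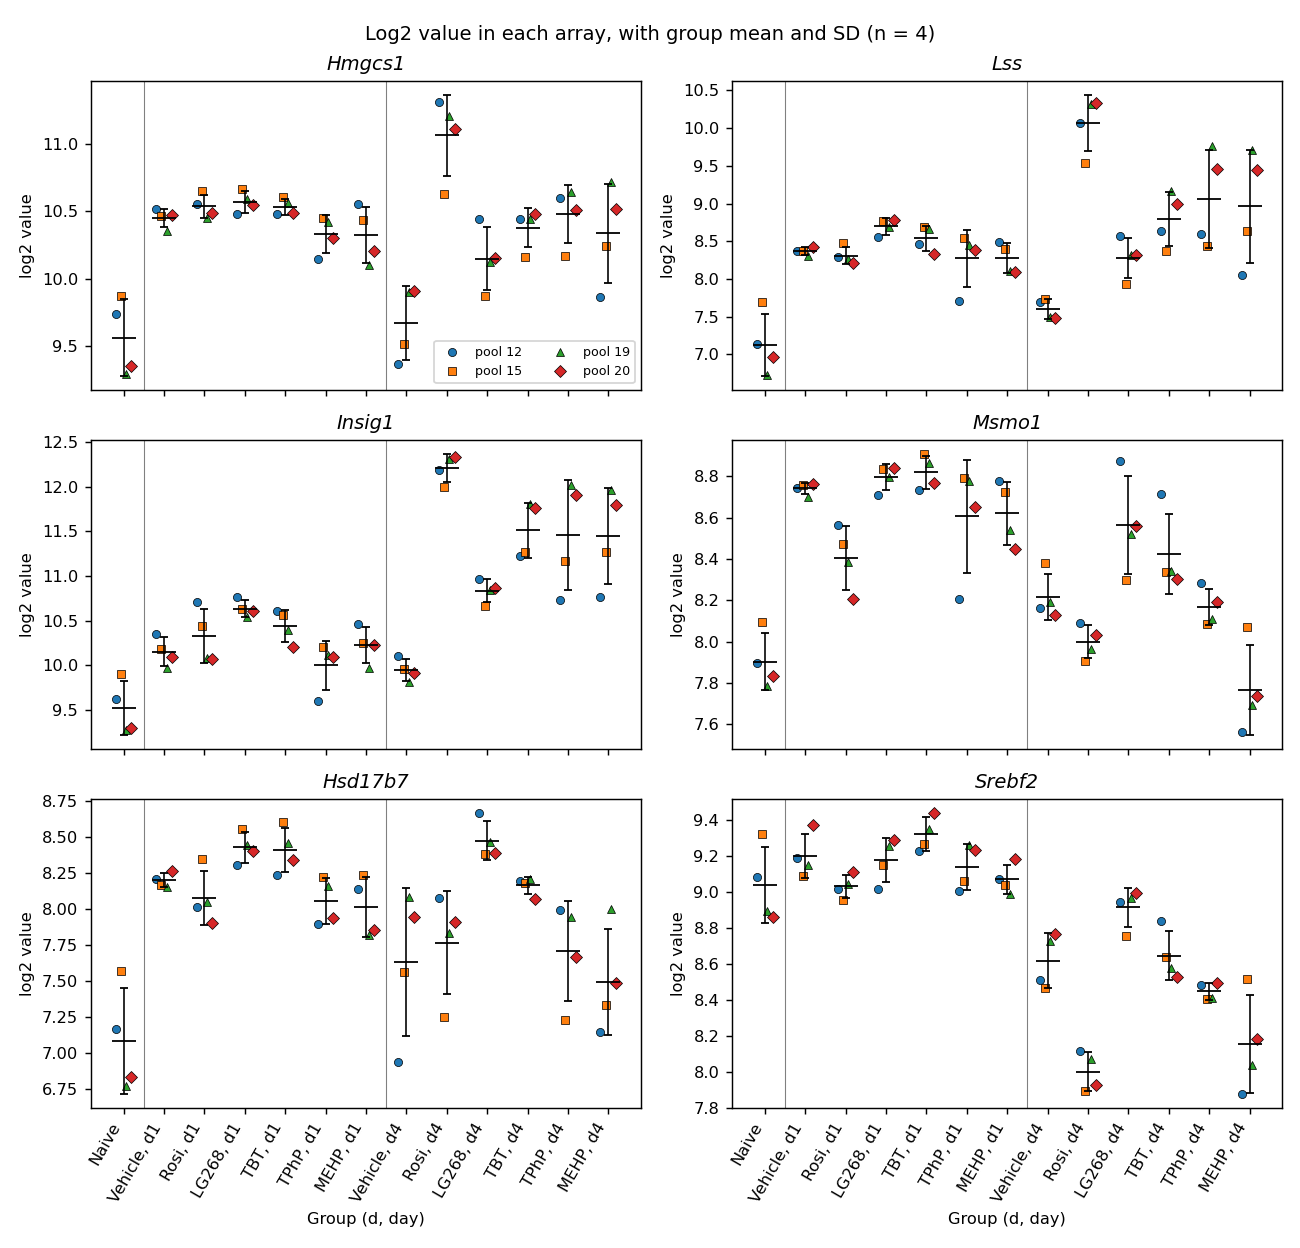
Log2 value of Hmgcs1, Lss, Insig1, Msmo1, Hsd17b7 and Srebf2 on every array (points, one for each pool) in the 13 groups, with the group mean as a line. Hmgcs1, Lss and Insig1 are highest with Rosi at day 4, Msmo1 and Hsd17b7 are not, and Srebf2 is lowest there.

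At day 1 none of the 25 members was called against vehicle of that day for any of the 5 chemicals in limma's fit, the one tool used. At an unadjusted p under 0.05 there were 0 higher and 3 lower for Rosi, 2 higher and 0 lower for LG268, 0 higher and 0 lower for TBT, 0 higher and 1 lower for TPhP and 0 higher and 1 lower for MEHP. Of all tested genes 7.25% were called for Rosi, 0.241% for LG268, 0.543% for TBT, 0.215% for TPhP and 0.523% for MEHP, so that few genes of any kind had passed for 4 of the chemicals. Member medians were -0.12, 0.13, 0.11, -0.12 and -0.13 in that order, and all-gene medians lay between -0.01 and 0.00.

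With Rosi at day 1, Msmo1 stood at 8.57, 8.47, 8.38 and 8.20, below all 4 vehicle arrays, with a difference of -0.34 (SE 0.11, adjusted p = 0.0572). Ebp, the sterol isomerase, stood at 8.93, 9.002, 8.88 and 8.77 against 9.22, 9.34, 9.07 and 9.07, a difference of -0.28 (SE 0.09, adjusted p = 0.0625), again without overlap. Both passed with the replicate block (adjusted p = 0.047 and 0.00542). The widest Rosi difference was in Cyp51, -0.50 without overlap, and it was called in neither fit. It passed when only the arrays of those groups were fitted (adjusted p = 0.0114). Without pool 12, Cyp51 (-0.57, adjusted p = 0.0183) and Msmo1 (-0.39, 0.0102) were called for Rosi. Ebp alone was called without pool 15 (0.0395) or without the Rosi array of pool 15 at day 4 (0.0467). LG268 gave no such call in either fit, and its widest difference was in Insig1, 0.48 (95% interval 0.06 to 0.90).

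Rosi and LG268 differed from each other at day 1 in 3 members, all higher with LG268, where 3.38% of all genes were. Ebp stood at 9.21, 9.37, 9.23 and 9.28 with LG268, above every Rosi array, by 0.38 (SE 0.09, adjusted p = 0.00762). Msmo1 held 8.71, 8.83, 8.80 and 8.84 against the Rosi values above, 0.39 (SE 0.11, adjusted p = 0.0219). Cyp51 held 9.40, 9.66, 9.53 and 9.53 with LG268 and 9.06, 8.96, 8.96 and 8.64 with Rosi, 0.63 (SE 0.20, adjusted p = 0.0426). The groups did not overlap for any of the 3, and none was called without pool 19 or without pool 20, while 5 members were without pool 12 and 1 without pool 15. Adipocyte markers differed in the same comparisons, 6 of 9 being lower with LG268 and 7 of 9 lower with TBT than with Rosi, and their part was not tested. Msmo1 was also higher with TBT than with Rosi, 0.41 (SE 0.11, adjusted p = 0.0297), the only member called there (0.946% of all genes), and not without pool 15, 19 or 20 (adjusted p = 0.0975, 0.294 and 0.473). No member was called by limma between TPhP and Rosi (0 higher and 0 lower at an unadjusted p under 0.05, 2.32% of all genes called), MEHP and Rosi (1 higher and 1 lower, 1.88%) or TBT and LG268 (0 higher and 0 lower, 0%).

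Some other sterol genes were called at day 1. Abca1, the cholesterol exporter, was 2.11 (SE 0.16, adjusted p = 2.62e-12) higher with LG268 and 1.89 (SE 0.16, adjusted p = 4.55e-11) higher with TBT, and Mylip, which encodes a ubiquitin ligase, was 0.80 ± 0.12 and 0.69 ± 0.12 higher. Both are known targets of LXR. Abcg1 rose by 1.63 ± 0.24 with Rosi, 2.09 ± 0.24 with LG268 and 1.88 ± 0.24 with TBT. Of the 21 further sterol genes, 2, 4, 4, 0 and 1 rose with Rosi, LG268, TBT, TPhP and MEHP, so that most were not called with any of them.

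**Figure D3:**
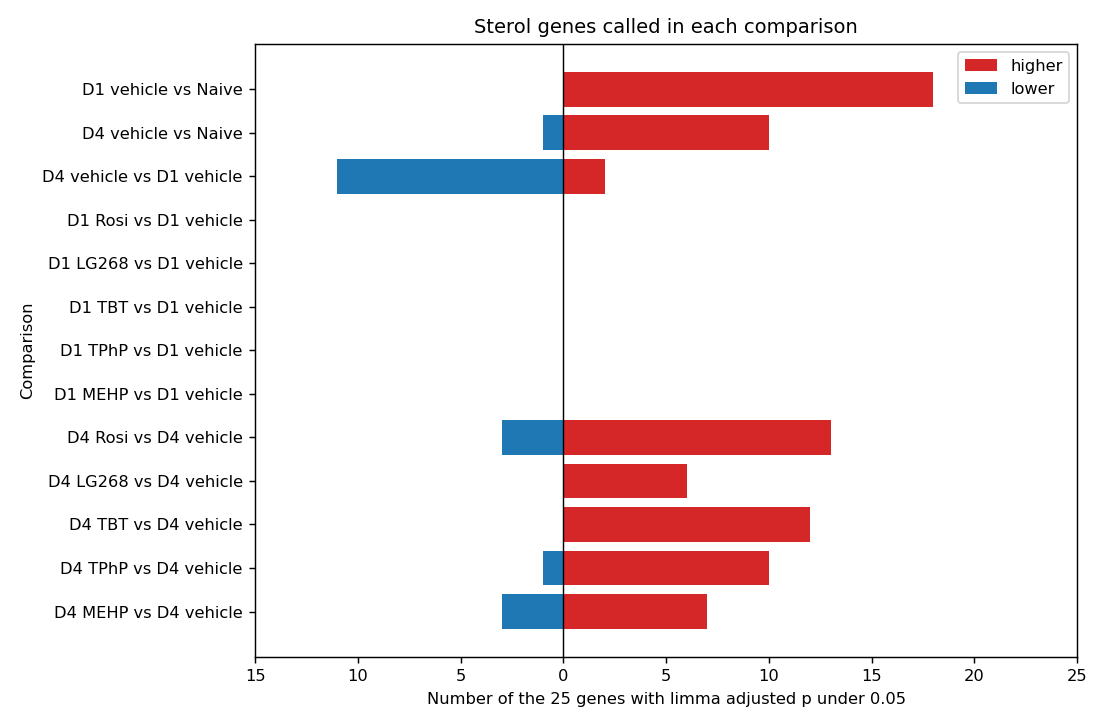
Number of the 25 members called higher (right of 0) or lower (left of 0) by limma at an adjusted p under 0.05 in each of the 3 vehicle comparisons and the 10 comparisons of a chemical with vehicle. The bars are empty for all 5 chemicals at day 1 and reach 13 higher and 3 lower for Rosi at day 4.

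At day 4 with Rosi more members rose than fell. Against vehicle of day 4, 13 rose and 3 fell, 52% and 12% of the members beside 21.3% and 27.7% of all tested genes. Members were thus called lower less often than tested genes in general. The member median was 0.48 and that of all genes -0.05. Increases were in 3 of 4 mevalonate genes, in Fdps, in Sqle, in 6 of the 10 late sterol genes and in both Insig genes, and the decreases were in Srebf2, Lbr and Npc1.

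Insig1 stood at 10.11, 9.96, 9.81 and 9.91 in the 4 pools of vehicle and at 12.19, 11.996, 12.31 and 12.33 with Rosi, a difference of 2.26 (SE 0.21, adjusted p = 3.65e-12). Lss rose from 7.69, 7.73, 7.50 and 7.48 to 10.07, 9.54, 10.32 and 10.33, by 2.47 (SE 0.25, adjusted p = 5.04e-11), the largest difference of any member in any comparison with vehicle. Hmgcs1 rose from 9.37, 9.52, 9.90 and 9.91 to 11.30, 10.63, 11.20 and 11.11, by 1.39 (SE 0.15, adjusted p = 1.59e-10). Every Rosi array lay above every vehicle array in these 3 genes, and pool 15 was the lowest of the Rosi arrays each time. Pmvk held 6.98, 7.14, 6.79 and 6.84 with vehicle and 8.84, 8.23, 8.94 and 8.98 with Rosi, 1.81 (SE 0.23, adjusted p = 1.12e-08), again without overlap. Its mean with vehicle, 6.94 ± 0.16, was near that of naive cells, 6.98 ± 0.31. Srebf2 fell from 8.51, 8.46, 8.73 and 8.76 to 8.11, 7.89, 8.07 and 7.92, a difference of -0.62 (SE 0.10, adjusted p = 1.6e-06), below every other group mean in the series.

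Rosi also raised Cyp51 (1.52 ± 0.20), Nsdhl (1.30 ± 0.19), Sc5d (1.10 ± 0.17), which adds a late double bond, Dhcr7 (0.81 ± 0.18), which makes cholesterol from its last precursor, Mvd (0.65 ± 0.19), Fdps (0.65 ± 0.17), Tm7sf2 (0.64 ± 0.16), Sqle (0.61 ± 0.14) and Insig2 (0.48 ± 0.13). Tm7sf2 and Lbr encode reductases for the same step of the route. Tm7sf2 rose while Lbr, which also anchors the nuclear lamina, fell, with a difference of -0.49 (SE 0.14, adjusted p = 0.00434). Npc1, the lysosomal cholesterol exporter, fell too, with a difference of -0.75 (SE 0.19, adjusted p = 0.00113), but with the mean of its probe sets this was -0.25 (adjusted p = 0.145), so that its probe sets disagreed in size, and without pool 12 it was -0.41 (adjusted p = 0.0026).

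The steps between lanosterol and cholesterol thus did not move as one. Msmo1 (8.09, 7.91, 7.96 and 8.03 with Rosi, 8.16, 8.38, 8.19 and 8.13 with vehicle) was lower on all 4 Rosi arrays than on any vehicle array, but the difference of -0.22 missed the threshold (adjusted p = 0.104). Hsd17b7 (0.14), Mvk (0.12), Fdft1 (0.35), Stard4 (-0.20), Scap (0.09) and Npc2 (0.08) were not called. With the replicate block Ebp was lower (adjusted p = 0.0169, -0.20) and Ggps1 higher (0.0462, 0.19). Of the 16 calls 13 held in every alternative fit. Without the Rosi array of pool 15, Fdft1 (0.48, adjusted p = 0.00932) and Ebp (-0.28, 0.0168) were called as well, and without pool 19 or 20 Fdps and Mvd were not.

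Other lists moved strongly in the same cultures. With Rosi at day 4, 9 of 9 adipocyte markers were higher (log2 sum 14.71 to 14.92 against 12.18 to 12.78), while 8 of 10 stromal, 10 of 10 macrophage, 5 of 7 osteoblast and 7 of 7 proliferation markers were lower (sums 12.64 to 12.99 against 13.40 to 14.41, 12.66 to 13.97 against 14.03 to 14.40, 11.14 to 11.94 against 12.75 to 13.78 and 8.95 to 9.71 against 10.21 to 10.58). Of 7 osteoclast markers 4 fell, of 8 neutrophil markers 1 fell, and 1 of 5 B cell and 1 of 5 endothelial markers rose. The part of these shifts in the members' differences was not tested. At day 1 with Rosi 9 of 9 adipocyte markers were higher too, with a log2 sum of 13.84 to 13.94, below that of Rosi at day 4. Among the SREBP1 genes of fatty acid synthesis 8 of 11 rose, with a median of 2.19. Acss2, which makes acetyl-CoA from acetate, rose by 3.55 ± 0.29, Fasn, fatty acid synthase, by 3.14 ± 0.27, and Srebf1 itself by 2.27 ± 0.19, opposite in direction to Srebf2. Of the 21 further sterol genes 6 rose, among them Gramd1b (1.82 ± 0.22), a carrier of cholesterol from the plasma membrane, Nr1h3 (1.37 ± 0.15), Abca1 (0.80 ± 0.16) and the lipoprotein receptor Scarb1 (0.61 ± 0.11), and 9 fell, among them Erg28 (-0.74 ± 0.09) and Lipa (-0.85 ± 0.17). Of 12 users of prenyl groups 5 rose and 2 fell, with Pdss2, which builds the tail of ubiquinone, at 1.22 ± 0.16 and Nus1, of dolichol synthesis, at 0.60 ± 0.08.

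With LG268 at day 4, 6 members rose and none fell (4.21% of all genes were called higher), with a median of 0.33 beside -0.02 for all genes. Hsd17b7, a reductase of the demethylation steps, stood at 6.94, 7.56, 8.09 and 7.95 with vehicle and at 8.67, 8.38, 8.47 and 8.39 with LG268, 0.84 (SE 0.19, adjusted p = 0.00273). Insig1 held 10.97, 10.66, 10.84 and 10.87 with LG268, 0.89 (SE 0.21, adjusted p = 0.0047) above the vehicle values given above. Fdft1 went from 8.37, 8.95, 8.97 and 8.93 to 9.52, 9.21, 9.38 and 9.42, by 0.58 (SE 0.15, adjusted p = 0.0125). In all 3 every LG268 array was above every vehicle array, and the vehicle array of pool 12 was the lowest for Hsd17b7 and Fdft1. Hmgcs1 (10.44, 9.87, 10.12 and 10.15) was 0.47 (SE 0.15, adjusted p = 0.0426) above vehicle with overlapping groups, and Sc5d (0.53 ± 0.17) and Msmo1 (0.35 ± 0.11) rose too. Insig1 missed the threshold in 1 alternative fit, without pool 20 (adjusted p = 0.0678). Without the vehicle array of pool 12, Fdft1, Hmgcs1, Sc5d and Msmo1 missed the threshold (adjusted p = 0.0972, 0.18, 0.144 and 0.113), leaving 3 members called, Npc2 (0.0342) being new among them. Without pool 12 as a whole Hsd17b7 went to 0.55 and Hmgcs1 to 0.27, neither of them called, and the count was 2, against 3 without pool 19 and 1 without pool 20. None of the 6 calls held in every alternative fit.

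With the replicate block Srebf2 (adjusted p = 0.0495, 0.30), Cyp51 (0.0472, 0.57) and Npc2 (0.0384, 0.23) were also higher with LG268, which made 9 members. Beside this, 10 of 11 fatty acid genes rose, among them Srebf1 (1.54 ± 0.19) and Scd1 (1.84 ± 0.28), a desaturase, and 6 of 21 further sterol genes did, led by Abca1 (2.18 ± 0.16). Of the marker lists, 6 of 9 adipocyte markers were higher (log2 sum 13.30 to 13.70), 2 stromal and 1 macrophage marker of 10 each were higher, 1 of 7 osteoblast markers was lower and none of the 7 proliferation markers was called. Among cell markers, 2 of 5 endothelial markers were higher, and 5 of 8 neutrophil and 3 of 7 osteoclast lower. None of 5 B cell markers was called. The medians were -1.72 for neutrophil, -0.83 for osteoclast and 1.17 for endothelial markers. Their part in the result was not tested.

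TBT at day 4 raised 12 members and lowered none (10.6% of all genes were called higher), with a median of 0.26 (-0.04 over all genes). Insig1 held 11.23, 11.27, 11.80 and 11.75, 1.57 (SE 0.21, adjusted p = 2.99e-07) above vehicle. Hmgcs1 held 10.44, 10.16, 10.44 and 10.48, 0.71 (SE 0.15, adjusted p = 0.000503) above it. Lss held 8.64, 8.37, 9.17 and 9.0, 1.19 (SE 0.25, adjusted p = 0.000529) above it. None of these overlapped vehicle, and for Insig1 and Lss pools 19 and 20 were higher than 12 and 15. Sc5d went from 8.69, 8.97, 8.94 and 9.06 to 9.70, 9.57, 9.81 and 9.61, by 0.76 (SE 0.17, adjusted p = 0.000775). Pmvk (0.86 ± 0.23), Nsdhl (0.76 ± 0.19), Cyp51 (0.75 ± 0.20), Fdft1 (0.58 ± 0.15), Hsd17b7 (0.53 ± 0.19), Dhcr7 (0.51 ± 0.18), Sqle (0.42 ± 0.14) and Npc2 (0.23 ± 0.09) also rose. With the pool as a block, Ebp was lower (adjusted p = 0.00734, -0.25). Hsd17b7, Sqle and Dhcr7 missed the threshold without the vehicle array of pool 12 (adjusted p = 0.264, 0.0785 and 0.0578), Hsd17b7 going to 0.30, and without pool 19 or 20 the count fell to 7. Npc2 missed the threshold with no filter (0.0733), with only the arrays compared (0.171) and without pool 15, 19 or 20 (0.124, 0.329 and 0.291). Pmvk missed it without pool 19 or 20 (0.0933 and 0.0829). Of the 12 calls 5 held in every alternative fit (Hmgcs1, Lss, Nsdhl, Sc5d and Insig1). All 9 adipocyte markers were higher and 5 of 10 stromal, 5 of 7 osteoblast and 6 of 7 proliferation markers lower, with log2 sums of 14.10 to 14.58, 13.58 to 13.81, 11.28 to 12.49 and 9.54 to 10.21. Among cell markers, 5 of 5 endothelial and 3 of 5 B cell markers were higher, 3 of 8 neutrophil and 5 of 7 osteoclast lower, 1 of 10 macrophage markers were higher and 1 lower. The part of these lists in the result was not tested.

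TPhP at day 4 raised 10 members and lowered 1, 40% and 4% of the members beside 11% and 7.94% of all genes. The member median was 0.29 (-0.03 over all genes). Insig1 stood at 10.73, 11.17, 12.02 and 11.91, 1.51 (SE 0.21, adjusted p = 5.54e-07) above vehicle. Lss stood at 8.59, 8.44, 9.76 and 9.46, 1.46 (SE 0.25, adjusted p = 2.58e-05) above it, and Hmgcs1 at 10.60, 10.17, 10.64 and 10.51, 0.81 (SE 0.15, adjusted p = 6.71e-05) above it. Nsdhl went from 9.10, 9.18, 9.27 and 9.32 to 9.93, 9.81, 10.63 and 10.50, by 1.000 (SE 0.19, adjusted p = 8.1e-05). No TPhP array overlapped vehicle in these 4 genes, and pools 19 and 20 lay well above 12 and 15 for Insig1, Lss and Nsdhl. Pmvk (1.09 ± 0.23), Dhcr7 (0.79 ± 0.18), Cyp51 (0.78 ± 0.20), Sc5d (0.77 ± 0.17), Tm7sf2 (0.47 ± 0.16) and Sqle (0.40 ± 0.14) rose as well. Npc1 fell, with a difference of -0.58 (SE 0.19, adjusted p = 0.029), and was not called with the mean of its probe sets (-0.30, adjusted p = 0.155) or without the vehicle array of pool 12 (0.175), nor was Sqle without that array (0.0975).

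With the replicate block Fdft1 (adjusted p = 0.0442, 0.41) was higher and Ebp (0.0213, -0.22) lower with TPhP. Without the TPhP array of pool 12 Fdps (0.53, adjusted p = 0.0332) and Fdft1 (0.48, 0.0302) were called. When only the arrays of TPhP and vehicle were fitted the count fell to 5, and without pool 19 to 5 and pool 20 to 7. Of the 11 calls 4 held in every alternative fit (Hmgcs1, Lss, Nsdhl and Insig1). Here 9 of 9 adipocyte markers were higher, 6 of 10 stromal and 4 of 7 osteoblast markers lower and 1 of 10 macrophage markers lower (log2 sums 14.24 to 14.76, 13.16 to 13.81, 11.36 to 13.20 and 13.65 to 14.12). Among cell markers, 1 of 5 B cell markers was higher, and 4 of 7 osteoclast lower. None of 8 neutrophil, 5 endothelial and 7 proliferation markers was called. Their part in the result was not tested.

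MEHP at day 4 raised 7 members and lowered 3, 28% and 12% of the members beside 12.1% and 11.7% of all genes. Its member median of 0.02 was near that of all genes (-0.05). Insig1 held 10.77, 11.27, 11.96 and 11.79, 1.502 (SE 0.21, adjusted p = 4.56e-07) above vehicle, and Lss 8.06, 8.64, 9.71 and 9.44, 1.36 (SE 0.25, adjusted p = 5.47e-05) above it, both without overlap. Pmvk held 7.12, 7.89, 8.60 and 8.46, 1.08 (SE 0.23, adjusted p = 0.000393) above it, where the array of pool 12 lay within the vehicle range and pools 19 and 20 more than 1 unit above it. Srebf2 held 7.88, 8.52, 8.04 and 8.18, -0.46 (SE 0.10, adjusted p = 0.000454), where pool 15 alone lay within the vehicle range. Nsdhl (0.84 ± 0.19), Hmgcs1 (0.66 ± 0.15), Sc5d (0.66 ± 0.17) and Dhcr7 (0.51 ± 0.18) rose, while Msmo1 (-0.45 ± 0.11) and Ebp (-0.37 ± 0.09) fell with no overlap of the groups.

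The MEHP array of pool 12 was the lowest of its group for most of the route, with 8.14 for Fdps, where the other pools held 9.32, 9.37 and 9.29, and the highest for Npc1 (10.17, 8.89, 8.73 and 8.85). Without it 12 members were called, and Cyp51 was 0.79 higher (adjusted p = 0.000749) in place of 0.49 (0.0658). Cyp51 passed with the replicate block too (0.048). Fitting only the arrays of MEHP and vehicle left 2 members, Lss and Insig1. These 2 were also the only ones of the 10 calls that held in every alternative fit. Adipocyte markers were higher in 9 of 9, stromal markers lower in 5 of 10, osteoblast markers lower in 5 of 7 and macrophage markers called in none of 10 (log2 sums 14.25 to 14.76, 13.23 to 13.47, 10.78 to 12.36 and 13.63 to 14.24). Among cell markers, 3 of 5 endothelial markers were higher, and 4 of 7 osteoclast and 2 of 7 proliferation lower. None of 8 neutrophil and 5 B cell markers was called. The part of all these lists in the result was not tested.

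**Figure D4:**
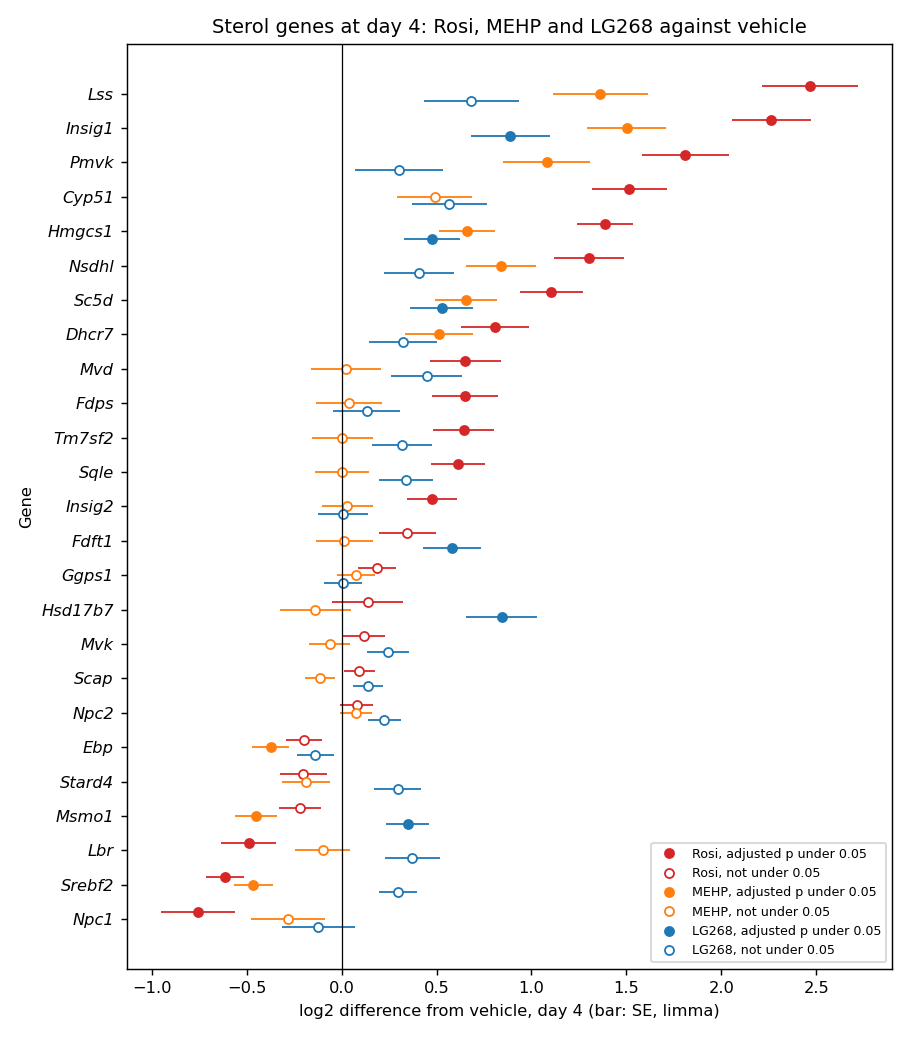
Difference from vehicle at day 4 (log2, points with SE bars) of the 25 members for Rosi, MEHP and LG268, with filled points for an adjusted p under 0.05. Lss, Insig1 and Pmvk lie far to the right for Rosi and MEHP, Msmo1 and Srebf2 lie left of 0 for MEHP, and Hsd17b7 and Msmo1 are called higher for LG268 alone of the chemicals drawn.

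A further description by pool was picked out after the values were seen and has no test. Each day 4 array was set against the vehicle array of its own pool, so that all 5 chemicals share the 4 vehicle arrays, that of pool 12 included. Pools 19 and 20 were both above pools 12 and 15 in 14 of 25 members for TPhP (21.7% of all tested genes), 14 for MEHP (21.9%), 9 for TBT (25.2%), 7 for Rosi (19.4%) and 5 for LG268 (23.3%). They were both below in 2, 2, 6, 1 and 7, where 27%, 32%, 26.9%, 25.4% and 26.2% of all tested genes were. Lss was 0.90, 0.71, 2.26 and 1.98 above its own vehicle array with TPhP in pools 12, 15, 19 and 20, and 0.37, 0.90, 2.21 and 1.97 with MEHP. Rosi gave 2.38, 1.81, 2.83 and 2.85, which was nearer to TPhP in pools 19 and 20 than in pools 12 and 15. From MEHP it lay farthest in pool 12, and about equally far in pools 15 and 20.

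Rosi was then set against each other chemical at day 4, arrays against arrays, since a difference from vehicle in one and not in the other is no test. LG268 and Rosi differed in 16 members, 6 higher and 10 lower with LG268. These were 24% and 40% of the members beside 26.3% and 21.5% of all genes, so that members were called higher no more often than genes in general. Srebf2 stood at 8.94, 8.75, 8.96 and 8.99 with LG268, 0.91 (SE 0.10, adjusted p = 3.64e-10) above Rosi. Lss stood at 8.57, 7.93, 8.31 and 8.32, a difference of -1.78 (SE 0.25, adjusted p = 9.66e-08), Insig1 differed by -1.37 (SE 0.21, adjusted p = 4.11e-07), and Pmvk (7.53, 7.07, 7.26 and 7.10) by -1.51 (SE 0.23, adjusted p = 5.12e-07). No array of either group crossed into the other for these 4 genes. Also higher with LG268 were Lbr (0.86 ± 0.14), Hsd17b7 (0.71 ± 0.19), Npc1 (0.63 ± 0.19, not called with the mean of its probe sets, adjusted p = 0.167), Msmo1 (0.57 ± 0.11) and Stard4 (0.50 ± 0.13). Also lower were Cyp51, Hmgcs1, Nsdhl, Sc5d, Fdps, Dhcr7 and Insig2, with differences of -0.95 to -0.47. Of the 16 calls 11 held in every alternative fit. Among cell markers, 9 of 10 stromal, 10 of 10 macrophage, 7 of 7 proliferation, 3 of 7 osteoblast, 2 of 7 osteoclast, 2 of 5 endothelial and 1 of 5 B cell markers were higher, and 8 of 9 adipocyte and 2 of 8 neutrophil lower. Here and against the other chemicals the part of the markers in the members' differences was not tested.

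TBT and Rosi differed in 12 members, 4 higher and 8 lower with TBT, 16% and 32% of the members beside 20.1% and 18% of all genes. Srebf2 (8.84, 8.64, 8.58 and 8.53 with TBT) was 0.64 (SE 0.10, adjusted p = 1.61e-06) higher. Lss and Hmgcs1 were lower with TBT, with differences of -1.27 (SE 0.25, adjusted p = 6.87e-05) and -0.68 (SE 0.15, adjusted p = 0.000245). Lbr stood at 8.97, 8.71, 8.63 and 8.58 with TBT and 8.21, 8.14, 7.89 and 7.92 with Rosi, 0.68 (SE 0.14, adjusted p = 0.000199). The groups were separate for all 4. Msmo1 (0.42 ± 0.11) and Stard4 (0.38 ± 0.13) were also higher, and Pmvk, Cyp51, Insig1, Insig2, Nsdhl and Fdps lower. Without the Rosi array of pool 15, Tm7sf2 (-0.57, adjusted p = 0.00339) and Sc5d (-0.50, 0.0132) were called too, as were Dhcr7 (0.0322), Sqle (0.0354) and Mvd (0.0469), all lower with TBT, which made 17 members. Of the 12 calls 9 held in every alternative fit. Among cell markers, 7 of 10 stromal, 10 of 10 macrophage, 7 of 7 proliferation, 3 of 5 endothelial and 1 of 5 B cell markers were higher, and 2 of 9 adipocyte and 2 of 8 neutrophil lower. None of 7 osteoblast and 7 osteoclast markers was called.

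TPhP and Rosi differed in 8 members, 2 higher and 6 lower with TPhP, 8% and 24% of the members beside 15.1% and 13.1% of all genes. Srebf2 (8.48, 8.40, 8.41 and 8.49 with TPhP) was 0.45 (SE 0.10, adjusted p = 0.000742) higher without overlap. Lss (-1.01, SE 0.25, adjusted p = 0.00214), Hmgcs1 (-0.58, SE 0.15, adjusted p = 0.00253) and Cyp51 (-0.74, SE 0.20, adjusted p = 0.0039, with 8.69, 8.84, 9.51 and 9.43 for TPhP and 9.99, 9.39, 9.95 and 10.10 for Rosi) were lower with overlap. The overlap lay between the Rosi array of pool 15, the lowest of its group, and the TPhP array of pool 19, with that of pool 20 for Cyp51. Insig1 (-0.75), Pmvk (-0.72) and Insig2 (-0.45) were also lower and Lbr (0.44) higher. Without the TPhP array of pool 12 Insig1 and Pmvk were not called (adjusted p = 0.0668 and 0.161), the difference of Pmvk going to -0.45, and fitting only the arrays of TPhP and Rosi left 2 members. Of the 8 calls 1, that of Srebf2, held in every alternative fit. In the fit with the block Ggps1 was lower as well (adjusted p = 0.02, -0.24). Among cell markers, 4 of 10 stromal, 10 of 10 macrophage, 7 of 7 proliferation and 1 of 7 osteoblast markers were higher, and 1 of 9 adipocyte lower. None of 7 osteoclast, 8 neutrophil, 5 endothelial and 5 B cell markers was called.

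MEHP and Rosi differed in 12 members, 1 higher and 11 lower with MEHP, 4% and 44% of the members beside 12.8% and 13.4% of all genes. Cyp51 (7.94, 8.90, 9.30 and 9.18 with MEHP) was lower without overlap, with a difference of -1.02 (SE 0.20, adjusted p = 0.000161). Hmgcs1 (-0.73, SE 0.15, adjusted p = 0.000308), Lss (-1.11, SE 0.25, adjusted p = 0.00101) and Sqle (-0.61, SE 0.14, adjusted p = 0.0013, with 7.83, 8.32, 8.52 and 8.39 for MEHP and 8.96, 8.38, 9.03 and 9.14 for Rosi) were lower with overlap. Tm7sf2, Insig1, Fdps, Insig2, Mvd, Pmvk and Sc5d were lower too, with differences of -0.76 to -0.45, and Lbr was 0.39 higher. Without the MEHP array of pool 12, 7 were called, with Insig1, Fdps, Mvd, Pmvk and Sc5d lost (adjusted p = 0.0661, 0.134, 0.0975, 0.179 and 0.299). With it left out, Fdps went from -0.61 to -0.32, Pmvk from -0.73 to -0.43 and Sc5d from -0.45 to -0.26. Without pool 12 as a whole Tm7sf2 went from -0.64 to -0.39 and Mvd from -0.63 to -0.41, without pool 15 Lbr went to 0.20 and was not called (0.298), and without pool 20 the count was 6. Fitting only the arrays of both groups left none, so that none of the 12 calls held in every alternative fit. With the replicate block Scap (adjusted p = 0.0225, -0.21) and Nsdhl (0.0498, -0.46) were lower and Npc1 (0.0332, 0.47) higher. The Npc1 difference turned without pool 12, to -0.026 (adjusted p = 0.91, with no block), the MEHP array of that pool being the highest of its group as given above. Among cell markers, 3 of 10 stromal, 10 of 10 macrophage, 7 of 7 proliferation and 1 of 5 endothelial markers were higher, and 1 of 9 adipocyte lower. None of 7 osteoblast, 7 osteoclast, 8 neutrophil and 5 B cell markers was called.

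TBT and LG268 at day 4 gave no call among the members in limma's fit, with 3 higher and 1 lower at an unadjusted p under 0.05 and 3.35% of all genes called. Insig1 came nearest, 0.68 higher with TBT (95% interval 0.26 to 1.10, adjusted p = 0.0595), with all TBT arrays above all LG268 arrays. It was called without the MEHP array of pool 12 (0.0344) or the TPhP array of pool 12 (0.0295), arrays that enter this comparison through the pooled spread, and 2 members were called without pool 12. Lss differed by 0.51 (0.00 to 1.02) and Srebf2 by -0.27 (-0.47 to -0.07).

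Whether a chemical acted otherwise at day 4 than at day 1 was tested as the difference between its 2 differences from vehicle. For Rosi, 16 members passed, 13 with a larger and 3 with a smaller difference at day 4. These were 52% and 12% of the members beside 14.4% and 15.6% of all genes. Lss (2.52, SE 0.35, adjusted p = 7.63e-07), Insig1 (2.09, SE 0.29, adjusted p = 7.66e-07), Cyp51 (2.01, SE 0.28, adjusted p = 6.27e-07), Pmvk (1.93, SE 0.33, adjusted p = 1.45e-05) and Hmgcs1 (1.30, SE 0.21, adjusted p = 6.45e-06) were among them, each with the same sign in all 4 pools. For Cyp51 the difference between Rosi and vehicle had been -0.50 at day 1. Srebf2 (-0.45), Lbr (-0.62) and Npc1 (-0.73) were the 3 that went down, and the probe sets of Npc1 disagreed in size for Rosi at day 4 as given above. Fdft1 and Npc1 missed the threshold without the vehicle array of pool 12 (adjusted p = 0.0978 and 0.131), and with the block Dhcr7 passed (0.0487, 0.61). Without pool 12 as a whole Npc1 stood at -0.41, and the count fell to 8 without pool 19 and 7 without pool 20. Of the 16 calls 7 held in every alternative fit.

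For TPhP 8 members were larger at day 4 (3.66% of all genes) and for MEHP 5 (4.29%). Insig1 changed by 1.66 (SE 0.29, adjusted p = 0.000397) for TPhP and 1.43 (SE 0.29, adjusted p = 0.00204) for MEHP, and Lss by 1.56 (SE 0.35, adjusted p = 0.00587) and 1.46 (SE 0.35, adjusted p = 0.00867). Nsdhl, Hmgcs1 and Pmvk passed for both chemicals, and Cyp51, Sc5d and Dhcr7 for TPhP. Without the vehicle array of pool 12 Cyp51 and Sc5d did not pass for TPhP (adjusted p = 0.0685 and 0.0596), and without the MEHP array of pool 12, or pool 12 as a whole, there were 9 members for MEHP. Without pool 19, and again without pool 20, 1 member passed for TPhP, Insig1, and none for MEHP, where the adjusted p of the 5 ran from 0.0921 to 0.326 without pool 20. With the block Npc1 also passed for TPhP (0.0195, -0.88). For TBT 1 member passed, Insig1 (1.28, SE 0.29, adjusted p = 0.0128, where 1.37% of all genes did), and not without pool 15, 19 or 20 (adjusted p = 0.0735, 0.171 and 0.313). For LG268 limma called none (3 higher and 0 lower at an unadjusted p under 0.05), where 0.0805% of all genes passed.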

How the data were processed

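RNA of 52 cultures, 4 pools of mice in each of 13 groups, went onto Mouse Gene 2.0 ST arrays of Affymetrix. The deposited values are log2 intensities per probe set, for which the submitters' processing notes name R 3.3.1 and the package oligo. No background correction or normalization is named there, so these steps were not given in the sources used here. Array medians lay between 3.97 and 4.15, and no further normalization was done. Strong signals can be compressed and weak ones raised by background on such arrays, so that differences may be understated. Each replicate is a pool of animals that was split over the groups, and 4 arrays a group limit the precision.

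Of 41345 probe sets, 23521 were annotated to 1 gene symbol, 1814 to several and 16010 to none. Only the first kind was used, and for 1082 genes with several probe sets the one with the highest mean. Of 22180 genes, 7269 without at least 4 arrays above the median of the table (4.05) were set aside, which left 14911. Group means were fitted on all arrays with limma 3.58.1 in R 4.3.3 (39 residual and 3.45 prior degrees of freedom, 2-sided tests). Each of 28 comparisons was adjusted over all tested genes by Benjamini-Hochberg: 3 of vehicle and naive groups, 10 of a chemical with vehicle, 10 between chemicals and 5 of a chemical's difference between the days. An adjusted p under 0.05 was a call. The script was tested on simulated data. Summaries and figures were made in Python 3.11.15 with pandas 2.3.3 and matplotlib 3.10.9.

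Pools bear the same numbers in every group and share animals per the labels. After subtraction of the group means, correlations of each array with arrays of other groups were averaged by pool. The highest average was that of the own pool for 45 of 52 arrays, and the median correlation within pools was 0.219. A fit with the pool as a replicate block (36 residual degrees of freedom) was run. Other alternatives were a fit of only the arrays compared, cyclic loess, the mean of a gene's probe sets, no filter, a stricter filter (above 6.34, the 75th percentile) and leaving out each pool. Leaving out the 4 arrays that stand apart, singly or together, was added after seeing the data.

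The members and all gene lists were chosen with earlier results of these data known. All members could be named. Of the other lists, called genes with the smallest adjusted p came first, at most 6 for a list and comparison. Values by array are given for the 6 members with the smallest adjusted p for vehicle at day 1 against naive and for at most 4 called members elsewhere. Some more array values were added where groups met or parted, and members near the threshold were picked after their values were seen. Promoters were to be shown for members holding TCACNCCAC, and the other 5 were added later.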

Additional observations from a re-analysis of the deposited data

Results flagged for a closer look

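In each group of 4 arrays the highest or the lowest array was compared with the rest, for each of the 25 members. In 24 of 325 pairs of member and group the gap to the nearest other array took up more than the share of the group's range that Dixon's 95% limit allows, and chance gives about 5% of such pairs. Values are log2, and the nearest other value is given after each. With TBT at day 4 this held for Hmgcs1 in pool 15 at 10.16 (below 10.44), Fdps in pool 15 at 8.93 (below 9.18), Msmo1 in pool 12 at 8.71 (above 8.34) and Dhcr7 in pool 15 at 8.82 (below 9.04). With Rosi at day 4 this held for Mvd in pool 15 at 7.94 (below 8.55), Fdft1 in pool 15 at 8.76 (below 9.25) and Tm7sf2 in pool 15 at 6.76 (below 7.46). With MEHP at day 4 this held for Fdps in pool 12 at 8.14 (below 9.29), Tm7sf2 in pool 12 at 6.07 (below 6.81) and Npc1 in pool 12 at 10.17 (above 8.89). With vehicle at day 4 this held for Fdft1 in pool 12 at 8.37 (below 8.93) and Npc1 in pool 12 at 9.99 (above 9.32). With LG268 at day 4 this held for Npc1 in pool 15 at 9.09 (below 9.38). With LG268 at day 1 this held for Sqle in pool 12 at 8.90 (below 9.22) and Dhcr7 in pool 12 at 8.99 (above 8.77). With TPhP at day 1 this held for Sqle in pool 12 at 8.62 (below 9.03), Ebp in pool 15 at 9.17 (above 8.97) and Dhcr7 in pool 12 at 8.29 (below 8.72). With Rosi at day 1 this held for Nsdhl in pool 20 at 9.57 (below 9.73) and Sc5d in pool 12 at 9.42 (above 9.13). With MEHP at day 1 this held for Ebp in pool 15 at 9.11 (above 8.95) and Ggps1 in pool 20 at 7.50 (below 7.61). With vehicle at day 1 this held for Sc5d in pool 19 at 9.26 (below 9.40). With TBT at day 1 this held for Stard4 in pool 15 at 7.88 (above 7.68).

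The effect of a chemical differed between day 1 and day 4, by the test of the difference between its differences from vehicle in limma, for 30 pairs of member and chemical. For Rosi the log2 difference at day 4 minus that at day 1 was Hmgcs1 1.30, Pmvk 1.93, Mvd 0.89, Fdps 0.93, Fdft1 0.60, Sqle 0.83, Lss 2.52, Cyp51 2.01, Tm7sf2 0.78, Nsdhl 1.34, Sc5d 1.29, Insig1 2.09, Insig2 0.58, Srebf2 -0.45, Npc1 -0.73 and Lbr -0.62, with adjusted p from 6.27e-07 to 0.0401. For TPhP the log2 difference at day 4 minus that at day 1 was Hmgcs1 0.93, Pmvk 1.14, Lss 1.56, Cyp51 0.99, Nsdhl 1.12, Sc5d 0.81, Dhcr7 0.83 and Insig1 1.66, with adjusted p from 0.000397 to 0.0473. For MEHP the log2 difference at day 4 minus that at day 1 was Hmgcs1 0.79, Pmvk 1.22, Lss 1.46, Nsdhl 0.99 and Insig1 1.43, with adjusted p from 0.00204 to 0.0171. For TBT it was Insig1 1.28 (adjusted p = 0.0128). Among these, 27 were larger and 3 smaller at day 4, the latter being Srebf2, Npc1 and Lbr with Rosi. The probe sets of Npc1 disagreed in size for Rosi against vehicle at day 4.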

How the results depend on the processing

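The numbers of members called are the results compared here. Vehicle at day 1 against naive, vehicle at day 4 against day 1, Rosi against vehicle at day 4 and LG268 and TBT against Rosi at day 4 stayed within 1.5 times of their counts under every alternative run, and LG268, TBT, TPhP and MEHP against vehicle at day 1, TBT against LG268 at day 1 and the change of LG268 between days stayed at 0. Of the 179 calls of single members, 179 held with the pool as a replicate block, 179 with the stricter filter, 175 with the mean of probe sets, 168 with cyclic loess, 165 without the filter and 121 when only the arrays of the groups compared were fitted. Fewest held with a whole pool left out: 105 without pool 20 and 117 without pool 19, against 156 without pool 12 and 161 without pool 15. Fitting only the arrays of the groups compared gave 4 in place of 11 for vehicle at day 4 against naive, 2 in place of 0 for Rosi against vehicle at day 1, 2 in place of 6 for LG268 against vehicle at day 4, 5 in place of 11 for TPhP against vehicle at day 4, 2 in place of 10 for MEHP against vehicle at day 4, 10 in place of 3 for LG268 against Rosi at day 1, 6 in place of 1 for TBT against Rosi at day 1, 1 in place of 0 for MEHP against Rosi at day 1, 2 in place of 8 for TPhP against Rosi at day 4, 0 in place of 12 for MEHP against Rosi at day 4, 1 in place of 0 for TBT against LG268 at day 4, 5 in place of 1 for the change of TBT between days, 4 in place of 8 for the change of TPhP between days and 2 in place of 5 for the change of MEHP between days. The replicate block gave 2 in place of 0 for Rosi against vehicle at day 1 and changed no other count by over 1.5 times. Cyclic loess gave 1 in place of 0 for Rosi against vehicle at day 1, the stricter filter 2 in place of 0 for Rosi against vehicle at day 1 and 1 in place of 0 for TBT against LG268 at day 4, and no filter 3 in place of 6 for LG268 against vehicle at day 4. Leaving out the 4 arrays that stand apart, an alternative chosen after seeing the data, gave 3 in place of 0 for Rosi against vehicle at day 1, 8 in place of 3 for LG268 against Rosi at day 1, 5 in place of 1 for TBT against Rosi at day 1, 2 in place of 0 for TBT against LG268 at day 4, 2 in place of 1 for the change of TBT between days and 10 in place of 5 for the change of MEHP between days. Leaving out 1 pool, or 1 of those 4 arrays, gave 4 to 13 for vehicle at day 4 against naive, 0 to 2 for Rosi against vehicle at day 1, 1 to 8 for LG268 against vehicle at day 4, 7 to 13 for TBT against vehicle at day 4, 5 to 14 for TPhP against vehicle at day 4, 0 to 5 for LG268 against Rosi at day 1, 0 to 2 for TBT against Rosi at day 1, 0 to 1 for TPhP against Rosi at day 1, 6 to 17 for MEHP against Rosi at day 4, 0 to 2 for TBT against LG268 at day 4, 7 to 18 for the change of Rosi between days, 0 to 1 for the change of TBT between days, 1 to 10 for the change of TPhP between days and 0 to 9 for the change of MEHP between days. The sign turned in 3 differences when 1 pool or array was left out, none of them called in the fit of all arrays, though Npc1 was with the replicate block: Fdps with MEHP against vehicle at day 4 ranged from -0.12 to 0.39, and with MEHP against Rosi Dhcr7 ranged from -0.47 to 0.051 and Npc1 from -0.026 to 0.65. The cause of these changes was not tested. The number of arrays limits the precision, and values near the table median carry little signal over background.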
